A study of Mus musculus with 3 samples.

Results

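FOG2 bound chromatin inside the bodies of noncoding genes, away from any protein-coding gene, at 586 autosomal sites in E12.5 mouse heart ventricles. A peak was counted here when its summit lay outside every protein-coding gene body, more than 5000 bp from every protein-coding gene end, and inside the body of at least 1 gene of another biotype in RefSeq (GRCm38.p6, the assembly of mm10). These were 9.66% of the 6067 autosomal peaks in the list of 6166 peaks that the authors deposited. Of the other autosomal peaks, 2783 had the summit inside a protein-coding gene body, 296 lay outside such bodies but within 5 kb of an end, and 2402 lay outside all gene bodies. The rule used annotation only, so the strength of a peak played no part in the choice.

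The data came from 2 FOG2 pulldown libraries and 1 input library of sheared chromatin without pulldown. About 20 ventricles made up each biological replicate. Per the labels' protocols, the mice were Fog2flbio/flbio;Rosa26BirA/BirA, that is, homozygous for a tagged FOG2 allele and for the biotin ligase BirA at Rosa26, whereas the labels' genotype field reads WT for all 3 libraries. Biotinylated FOG2 was recovered on streptavidin beads, and a pulldown from mice without the tagged allele was not analysed here. The peaks were called on the pooled pulldown, so no peak has a value per replicate, and no spread between replicates or test over samples could be computed. Intervals below cover counting error only. The list holds no expression, so the labelled tissue could not be checked against marker levels.

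FOG2 is a zinc finger cofactor encoded by Zfpm2. It binds GATA factors, such as GATA4 in the heart, and raises or lowers the expression of their targets during heart development. Most genes considered here make long noncoding RNAs (lncRNAs), transcripts that are not translated into a known protein. Some lncRNAs act on neighbouring genes, some host small RNAs, and others mark enhancers that are transcribed. Many lncRNA genes in mouse carry only provisional symbols of the forms Gm and Rik, and for these no function is stated below.

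Sequence was at hand only for windows from 250 bases before to 50 bases after annotated start sites, taken from RefSeq (GRCm38.p6). This promoter table does not hold a start site for every gene. The intervals of 16 of the 586 peaks met such a window of their own host, and the 6 below are shown because the summit lies in the window or a GATA or T-box match lies inside the interval. The fold printed after them is pulldown over control at the summit. Capitals mark matches to the GATA motif (AGATAA or TGATAA) or the T-box motif (AGGTGT) on either strand, and the sequences run 5′ to 3′ on the strand of the gene.
Gm31867, chr1:52250933-52251232, minus strand: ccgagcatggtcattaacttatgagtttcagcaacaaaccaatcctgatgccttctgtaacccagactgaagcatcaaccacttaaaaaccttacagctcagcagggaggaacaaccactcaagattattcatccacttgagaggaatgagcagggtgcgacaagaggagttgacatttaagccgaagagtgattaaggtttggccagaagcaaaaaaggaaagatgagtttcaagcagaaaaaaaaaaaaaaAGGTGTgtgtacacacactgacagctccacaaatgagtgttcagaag
Gm40604, chr10:15760024-15760323, minus strand: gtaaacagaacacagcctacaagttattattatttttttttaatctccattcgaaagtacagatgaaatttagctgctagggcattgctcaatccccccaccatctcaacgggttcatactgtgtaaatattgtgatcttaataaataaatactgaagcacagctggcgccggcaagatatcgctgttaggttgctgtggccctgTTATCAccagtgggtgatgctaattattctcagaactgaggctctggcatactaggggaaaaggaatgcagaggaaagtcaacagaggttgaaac
Hectd2os, chr19:36689430-36689729, minus strand: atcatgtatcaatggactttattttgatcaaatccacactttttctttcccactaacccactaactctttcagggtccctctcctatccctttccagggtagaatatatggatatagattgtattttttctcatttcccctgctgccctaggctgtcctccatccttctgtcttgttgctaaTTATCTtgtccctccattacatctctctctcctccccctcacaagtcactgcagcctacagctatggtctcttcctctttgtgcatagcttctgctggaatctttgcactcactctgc
Gm40124, chr3:115641677-115641976, minus strand: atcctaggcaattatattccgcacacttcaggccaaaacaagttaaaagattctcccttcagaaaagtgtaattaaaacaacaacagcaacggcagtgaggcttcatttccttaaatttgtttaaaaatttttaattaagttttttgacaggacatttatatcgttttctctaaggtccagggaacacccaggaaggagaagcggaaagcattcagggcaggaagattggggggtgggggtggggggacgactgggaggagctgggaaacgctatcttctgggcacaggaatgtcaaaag
Gm52779, chr5:74944238-74944537, minus strand: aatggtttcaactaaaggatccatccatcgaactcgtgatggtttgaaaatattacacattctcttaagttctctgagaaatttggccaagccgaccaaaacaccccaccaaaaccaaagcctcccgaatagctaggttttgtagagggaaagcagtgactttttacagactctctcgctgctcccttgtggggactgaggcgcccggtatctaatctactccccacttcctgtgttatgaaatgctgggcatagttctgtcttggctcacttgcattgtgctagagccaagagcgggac
Gm39486, chr11:120164592-120164891, minus strand: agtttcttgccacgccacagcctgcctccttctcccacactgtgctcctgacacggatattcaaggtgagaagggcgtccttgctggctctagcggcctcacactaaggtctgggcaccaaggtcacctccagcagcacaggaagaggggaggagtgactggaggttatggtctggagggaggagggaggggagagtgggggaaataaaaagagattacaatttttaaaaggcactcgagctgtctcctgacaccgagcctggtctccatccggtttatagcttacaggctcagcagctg

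In Gm31867 the summit lay 86 bases from the start site, the peak was 5.41-fold over control, and the T-box match lay inside the interval. In Gm40604 the interval held the GATA match, with the summit 190 bases from the start site at 4.68-fold. In Hectd2os the summit lay 13 bases from the start site at 4.42-fold, and the GATA match lay outside the interval. The summits of Gm40124 (7.22-fold) and Gm52779 (7.14-fold) lay 38 and 37 bases from the start site, and that of Gm39486 (4.29-fold, 6 fragments) lay 76 bases from it. None of these 3 windows held a GATA or T-box match. The 6 peaks ranged from 4.29- to 7.22-fold.

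Among the 16 host windows, 3 held the GATA motif. The share was 30.8% of the 133 windows met by any autosomal peak and 18.6% of all 31396 autosomal windows. The T-box motif was in 3 of the 16, in 9.02% of windows under any peak and in 13.8% of all. Of 5 other motifs searched on both strands, TEAD (GGAATG) was in 3 of the 16 hosts, 18.05% of windows under any peak and 14.6% of all. MEF2 (TAAAAAT) was in 4, 12.8% and 6.39%. NKX2 (AAGTG) was in 9, 46.6% and 46.2%, and the E-box (CAGCTG or CATCTG) in 5, 33.1% and 30.6%. AP1 (TGACTCA) was in 0 of the 16, 2.26% and 5.26%. A match describes letters only, and 16 hosts are too few to compare shares.

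The peaks in noncoding gene bodies had about the strength of the other autosomal peaks. Their fold ranged from 3.25 to 69.6, with a median of 6.40 (exact 95% interval 6.30 to 6.84) and quartiles of 5.42 and 9.02. The median was 6.57 (6.38 to 6.77) for peaks outside all gene bodies, 6.38 (6.32 to 6.49) for peaks at protein-coding genes and 6.39 (6.37 to 6.55) for all autosomal peaks. These intervals overlap. Of the 586 peaks, 113 (19.3%, Wilson 95% interval 16.3 to 22.7) reached 10-fold, against 16.8% of all autosomal peaks, 17.9% of those outside all gene bodies and 15.5% of those at protein-coding genes. At 20-fold or more stood 20 (3.41%, 2.22 to 5.21), against 2.92%, 2.71% and 2.99% of the same classes. Both shares lay near the background.

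**Figure D1:**
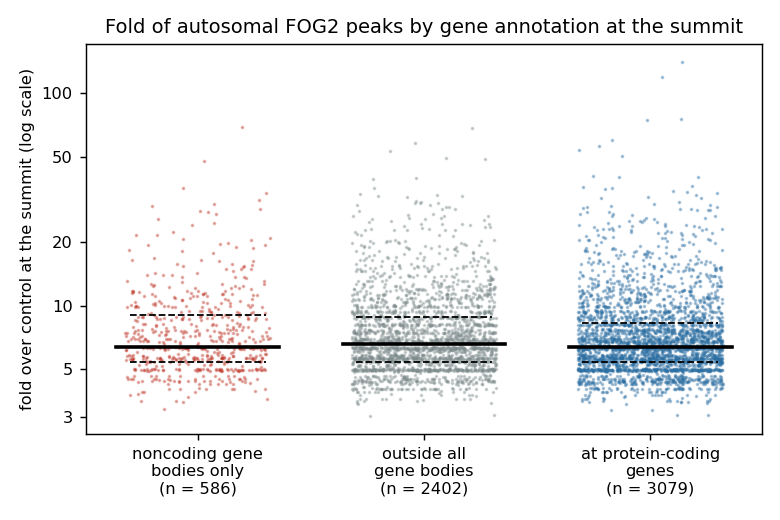
Fold over control at the summit (log scale) of each autosomal peak, for noncoding gene bodies only, outside all gene bodies, and at protein-coding genes (in the body or within 5 kb). Solid lines are medians (6.40, 6.57 and 6.38) and dashed lines are quartiles. The spreads of the 3 classes lie over each other.

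Depth and width were similar as well. A median summit in a noncoding gene body rested on 12 pulldown fragments, with quartiles of 9 and 17, and 227 of the 586 (38.7%) rested on 10 or fewer, against 39.2% of all autosomal peaks. Fragment numbers were solved for from the fold and −log10 p that the authors' caller wrote. The median interval was 253 bp wide, against 251 bp for all autosomal peaks. The control level at the summit was at its lowest value, 0.588, in 18.8% of the peaks and in 16.3% of all autosomal peaks. The folds of peaks near the median could not be ranked at this depth.

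The strongest peak was in Gm34259 on chromosome 17 (4612379 to 4633520). It spanned 4626154 to 4626700, was 69.6-fold over control and held 111 fragments (exact 95% Poisson interval 91.3 to 134). The nearest protein-coding gene was Arid1b, a subunit gene of the BAF chromatin remodelling complex, 368 kb away. The next strongest, in Gm33439 on chromosome 10, spanned 118768769 to 118769928 at 48.1-fold with 82 fragments (65.2 to 102). It lay 86.4 kb from Dyrk2, a protein kinase gene. A peak in D130079A08Rik on chromosome 14 (104336841 to 104337150) was 35.9-fold with 56 fragments (42.3 to 72.7), 125 kb from Pou4f1, a POU domain factor gene.

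The peak in Gm30676 on chromosome 10 (31053171 to 31053728) was 34.0-fold with 95 fragments (76.9 to 116), and its nearest protein-coding gene, 211 kb away, was Hey2, a Notch target that encodes a repressor of the ventricular wall. Its fold was below that of the D130079A08Rik peak although it held more fragments, since its control level was 1.83 against 0.588. The remaining 6 of the strongest 10 ranged from 31.5- to 27.5-fold. The peak in Gm36876 (31.5-fold) was nearest to Axin2, a WNT feedback inhibitor gene, and that in Gm30033 (30.0-fold) to Iyd. The peak in 8430422H06Rik (29.4-fold) was nearest to Zfp521, that in 9630002D21Rik (28.4-fold) to the formin gene Daam1, that in Gm4208 (27.8-fold) to the semaphorin and VEGF coreceptor gene Nrp2, and that in C630028M04Rik (27.5-fold) to the condensin gene Smc2. Distances of these 6 ran from 10.2 kb for Nrp2 to 402 kb for Smc2, and all 10 strongest hosts were lncRNA genes.

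**Figure D2:**
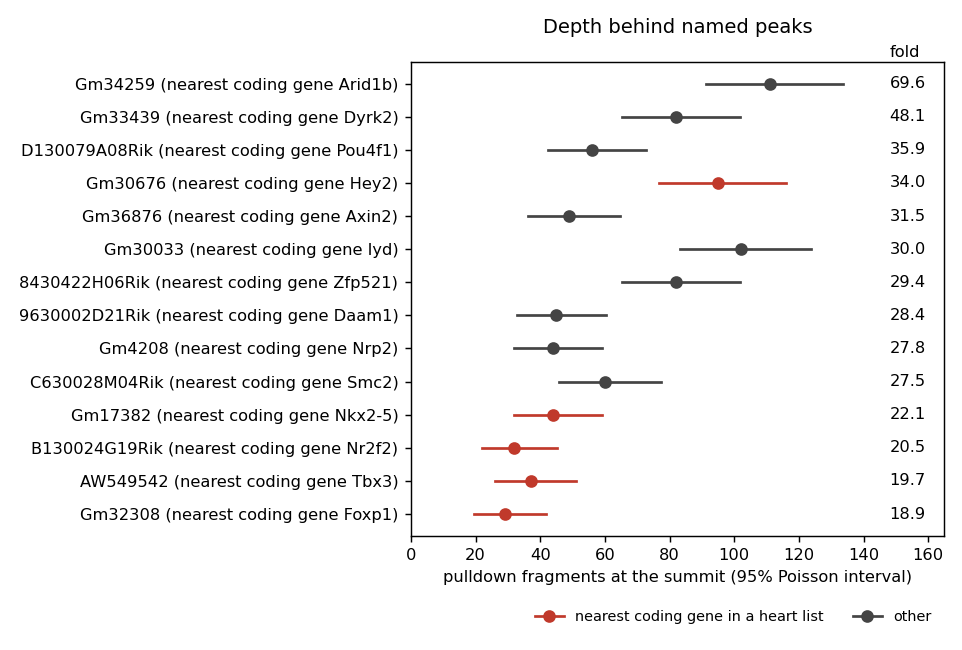
Pulldown fragments at the summit, with exact 95% Poisson intervals, for the 10 peaks of highest fold and the 5 of highest fold whose nearest protein-coding gene is in a heart list (1 peak is in both). Folds stand at the right, and the strongest, in Gm34259, rests on 111 fragments.

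The 586 summits lay in 482 host genes, of which 455 (94.4%) were lncRNA genes. At least 1 lncRNA host held 559 of the 586 summits (95.4%, 93.4 to 96.8). The other 27 had as host 18 times a pseudogene, 2 times each a transcribed pseudogene, an snRNA, a misc_RNA or a gene annotated as other, and once a Y RNA gene, Rny3. Those annotated as other were the T cell receptor loci Tcra and Tcrd and the immunoglobulin locus Igk, large loci of rearranging segments. Every host had a provisional symbol for 556 of the 586 peaks (94.9%), and 194 peaks (33.1%) had a host with a curated RefSeq transcript. The median fold was 6.31 with such a host and 6.60 without.

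Host genes were long. Their median length was 34.7 kb (exact 95% interval 30.5 to 41.5), against 8.39 kb for all 12408 autosomal lncRNA genes. A longer gene offers more room for a summit, and in all 455 of the autosomal lncRNA genes (3.67%) hosted 1, against 322 of 2930 (11.0%) among those of 20 kb or more. LncRNA genes lying wholly in or within 5 kb of protein-coding genes can host no such peak. They were not left out of the 12408 or the 2930. Of the 482 hosts, 386 held 1 summit, 75 held 2 and 21 held 3 or more.

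A930011G23Rik, a gene of 432 kb on chromosome 5 (99297244 to 99729060), held 8 peaks, the most of any host. From its lower-coordinate end upward their folds were 4.51, 6.57, 7.68, 5.67, 8.71, 9.83, 12.4 and 7.57. The strongest rested on 23 fragments (14.6 to 34.5) and the weakest on 9 (4.12 to 17.1), and these intervals overlap. The summits lay 87.0 to 323 kb from Rasgef1b or 236 to 321 kb from Vamp9. A930035F09Rik on chromosome 8 (128204713 to 128358237) held 5 peaks of 4.06- to 7.91-fold. Its start site lay 0.836 kb from a start site of Nrp1, a semaphorin and VEGF coreceptor gene of vessels and nerves, on the opposite strand, and its summits were 67.9 to 144 kb from Nrp1.

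Gm35831 and Gm32624 held 4 peaks each. In Gm35831 on chromosome 15 the folds were 16.8, 6.30, 6.93 and 4.06, and 3 of the summits lay within 1.355 kb. In Gm32624 on chromosome 16, 516 kb or more from any protein-coding gene body, they were 12.53, 8.70, 7.98 and 13.7. The peak of 13.7-fold rested on 46 fragments (33.7 to 61.4) over a control level of 2.43. Among the hosts of 3 peaks, Gm33439 had folds of 4.66, 48.1 and 10.6, C630028M04Rik 27.5, 3.54 and 9.30, Gm32200 14.9, 7.28 and 5.01, Gm29260 4.97, 5.60 and 11.6, and the 1284 kb Gm32647 6.72, 15.7 and 4.96. Hosts tied at 3 peaks were taken by their highest fold, so a strong peak in each of these 5 follows from the choice. In others with 3 peaks the strongest was weaker, for example 9.86-fold in 4930556G01Rik and 5.67-fold in Gm27243.

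**Figure D3:**
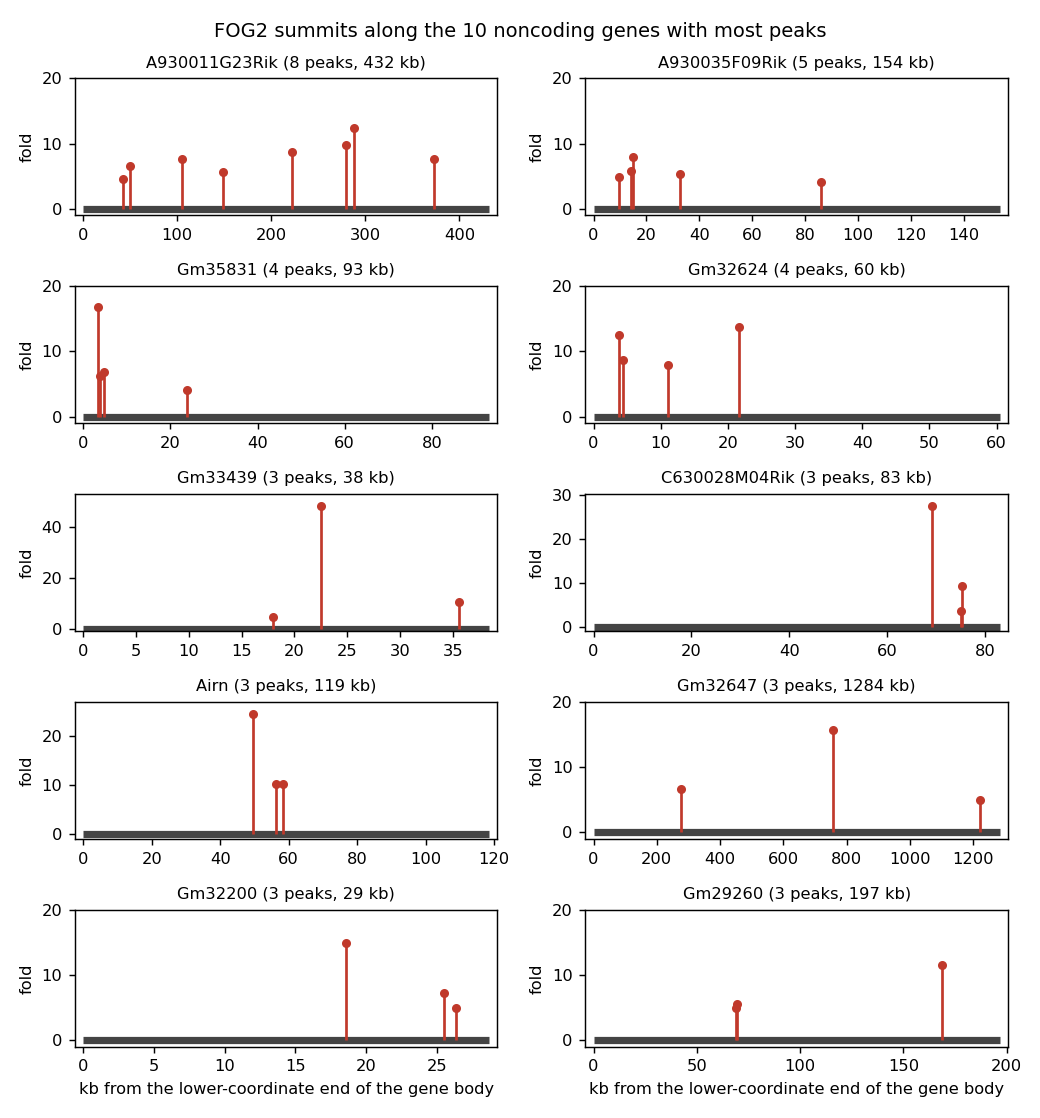
Fold at the summit of each peak along the 10 noncoding genes with the most peaks, in kb from the lower-coordinate end of the gene body (grey bar). Genes tied in number of peaks were taken by highest fold. The 8 peaks of A930011G23Rik are spread along the gene, while 3 of the 4 in Gm35831 lie close together.

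Airn held 3 peaks on chromosome 17, in the part of the gene beyond Igf2r. Airn is an imprinted lncRNA gene that overlaps Igf2r on the opposite strand and is known to silence it on the paternal chromosome. The peaks were 24.4-, 10.3- and 10.2-fold with 68 (52.8 to 86.2), 28 (18.6 to 40.5) and 25 (16.2 to 36.9) fragments. The strongest, at 12790638 to 12791186, lay 21.2 kb from the Igf2r body and 49.6 kb downstream of the Airn start site, and the others 6.75 and 8.84 kb further on. The counts of the weaker 2 peaks overlap each other and lie below that of the strongest.

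Of the noncoding genes with established names, those described next had a place in a list of 61 such genes (56 of them in the RefSeq table), or a symbol ending in os or hg. In all, 14 peaks qualified, and the 12 of highest fold are described, the 3 of Airn among them. Hectd2os, antisense to Hectd2 on chromosome 19, held a peak of 27.1-fold with 53 fragments (39.7 to 69.3) at 36682765 to 36683095, 6.55 kb from its start site. Banf2os held peaks of 11.7- and 11.1-fold, 9.44 kb apart. Mir99ahg, whose transcript is known as a host of miR-99a, let-7c and miR-125b, held a peak of 8.66-fold with 15 fragments (8.40 to 24.7). It was not among the 7 hosts whose body, as annotated here, held a miRNA hairpin. Pvt1, the neighbour of Myc, held peaks of 8.21-fold (14 fragments, 7.65 to 23.5) and 4.96-fold (10 fragments, 4.80 to 18.4), 241 and 263 kb from Myc. Pax6os1 held a peak of 8.19-fold, and Fhad1os2, shared with Gm46874, a peak of 7.77-fold. Tbx3os1, shared with Gm16064, held a peak of 5.31-fold, 18.6 kb from Tbx3. The peaks just given for Mir99ahg, Pvt1, Pax6os1, Fhad1os2 and Tbx3os1 rested on 10 to 15 fragments each. A further peak in Mir99ahg had the lowest fold of all 586, 3.25, with 24 fragments (15.4 to 35.7) over a control level of 6.69, the highest among them.

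A few hosts were named after their values were seen. Redrum, a lncRNA gene known from mouse erythroid cells, held a peak of 24.1-fold with 43 fragments (31.1 to 57.9) on chromosome 18. Its nearest protein-coding gene, Zfp608, was 444.2 kb away. Nctc1, which overlaps a muscle enhancer region beyond H19, held a peak of 4.32-fold resting on 6 fragments (2.202 to 13.1). Tmem238l, annotated as a lncRNA gene in this assembly, held peaks of 11.2- and 10.6-fold.

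Genes of cardiac transcription factors were the most frequent heart neighbours. For 49 of the 586 peaks (8.36%, 6.38 to 10.9) the nearest protein-coding gene was in one of 4 heart lists, against 8.49% of all autosomal peaks and 7.45% (6.47 to 8.57) of those outside all gene bodies. By list, 32 peaks (5.46%, 3.89 to 7.61) were nearest to a cardiac transcription factor gene, against 3.49% of all autosomal peaks and 3.75% (3.06 to 4.58) of those outside all gene bodies. Ground nearest to these genes made up 2.36% of the noncoding stretch in which a summit could qualify and 1.70% of the stretch outside all gene bodies. The peaks were thus above their share of ground in both classes, and whether the classes differ was not tested. The nearest gene need not be the gene a site acts on.

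The 32 peaks were nearest to 20 of the 77 listed factor genes. Hey2 was nearest to both peaks of Gm30676, at 34.0- and 17.6-fold, with 95 (76.9 to 116) and 33 (22.7 to 46.3) fragments. Gm17382 on chromosome 17 held peaks of 22.1-fold (26868789 to 26869232, 44 fragments, 31.97 to 59.1) and 7.41-fold, 23.9 and 15.6 kb from Nkx2-5, the cardiac homeobox gene. Nr2f2, which encodes the atrial regulator COUP-TFII, was nearest to a peak of 20.5-fold in B130024G19Rik (39.2 kb away) and to 1 of 5.67-fold in Gm29683. The start of B130024G19Rik lay 1.36 kb from that of Nr2f2 on the opposite strand.

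Tbx3, a T-box repressor gene of the conduction system, was nearest to 4 peaks in 3 host loci on chromosome 5. AW549542 (119570129 to 119580358) held peaks of 19.7-fold with 37 fragments (26.1 to 51.0) and 6.41-fold with 21 fragments (12.999 to 32.1), 2.76 kb apart. Tbx3os1 and Gm31190 held peaks of 5.31- and 4.97-fold. Foxp1, a forkhead gene, was nearest to a peak of 18.9-fold in the pseudogene Gm32308, with 29 fragments (19.4 to 41.6). Irx1, an Iroquois homeobox gene, was nearest to 4 peaks. Of these, 3 were in Gm40999, at 11.1-, 10.9- and 5.67-fold, and 1 in 1700112M02Rik at 6.84-fold. The endothelial factor gene Ets1 was also nearest to 4 peaks, of 5.67- to 7.54-fold, in 3 hosts. Sox5 (9.95-fold), Mef2c (9.32-fold), Msx2 (8.12-fold), Esrrg (6.79-fold) and Sox4 (6.17-fold) had 1 peak each. Foxo1, Sox11, Cited2, Prox1, Meis1 and Sox6 had 1 peak each as well, of 5.04-fold or less.

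In the list of signalling and natriuretic peptide genes, 10 peaks (1.71%, 0.930 to 3.11) were nearest to 7 of 67 genes, against 1.08% of the ground and 2.06% of all autosomal peaks. For peaks outside all gene bodies the share was higher, 2.25%, on 1.05% of their ground. The strongest was at Fgf9, an epicardial and endocardial growth factor gene, at 13.7-fold in Gm33430, 316 kb away. Tgfbr3, a coreceptor gene for TGF-beta and inhibin, had 3 peaks in Gm33474, at 8.15-, 7.77- and 5.80-fold. Jag1, a Notch ligand gene, had a peak of 9.90-fold and Bmp6 1 of 8.53-fold. Acvr2a, Robo1 and Tgfb2 had peaks of 3.89- to 6.93-fold.

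Contractile and calcium genes were the nearest to 7 peaks. Sarcomere, Z-disc and junction genes had 4 peaks (0.683%, 0.266 to 1.74), against 1.65% of all autosomal peaks, 0.624% of those outside all gene bodies and 0.139% of the ground. The share was thus above that of the ground, on 4 peaks, and the rule itself leaves out peaks in or beside protein-coding genes, which count among all autosomal peaks. Of 51 such genes in the RefSeq table, 3 were nearest to a peak, namely Myh7, Sorbs2 and Xirp2. Calcium handling and ion channel genes had 3 peaks (0.512%, 0.174 to 1.49), against 1.29% of all autosomal peaks, 0.833% of those outside all gene bodies and 0.442% of the ground. They were Cacnb2, an L-type calcium channel subunit gene, with peaks of 13.4- and 5.86-fold in Gm13266, and the connexin gene Gja5, with 1 of 5.80-fold. The lists of other tissues had 4 peaks (0.683%, 0.266 to 1.74) for neuronal genes, against 0.297% of all autosomal peaks and 0.536% of the ground, and 0 for hepatocyte genes (Wilson upper bound 0.651%), against 0.245% of the ground. The neuronal genes were Dlx2, Neurog1 and Pax6.

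**Figure D4:**
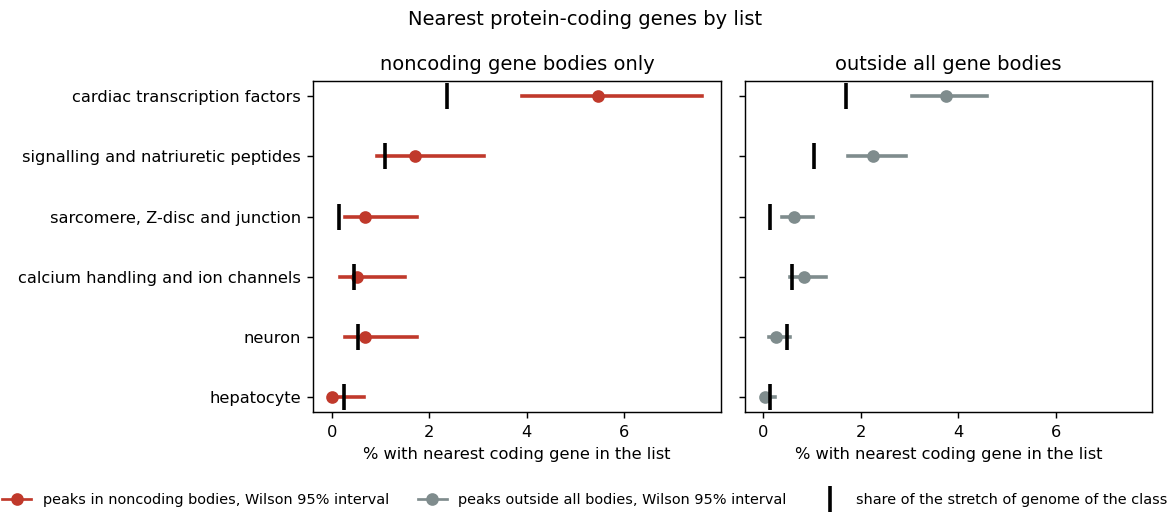
Share of peaks whose nearest protein-coding gene is in each list (points with Wilson 95% intervals), for noncoding gene bodies only (left) and outside all gene bodies (right). Black marks show the share of ground of the class nearest to the same genes. Cardiac transcription factors stand at 5.46% of peaks on 2.36% of the ground on the left. On the right they stand at 3.75% of peaks on 1.70% of the ground.

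Peaks were denser in noncoding gene bodies than outside all gene bodies. The qualifying noncoding stretch covered 189 Mb and held 3.10 peaks per Mb (Poisson 95% interval 2.85 to 3.36). The stretch outside all gene bodies held 2.13 per Mb (2.04 to 2.21), and protein-coding bodies with 5 kb on each side 2.74 per Mb (2.64 to 2.84). Density in noncoding bodies was above that outside all bodies on 16 of the 19 autosomes, with chromosomes 14, 18 and 19 the exceptions, and above that of protein-coding genes on 12. It ranged from 1.70 per Mb on chromosomes 14 and 19 to 5.27 on chromosome 17. Leaving out each chromosome in turn, the ratio to the stretch outside all bodies, 1.46 over all autosomes, ran from 1.40 to 1.49. Assembly gaps and unmappable sequence were not left out, and their part in the ratio was not tested.

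**Figure D5:**
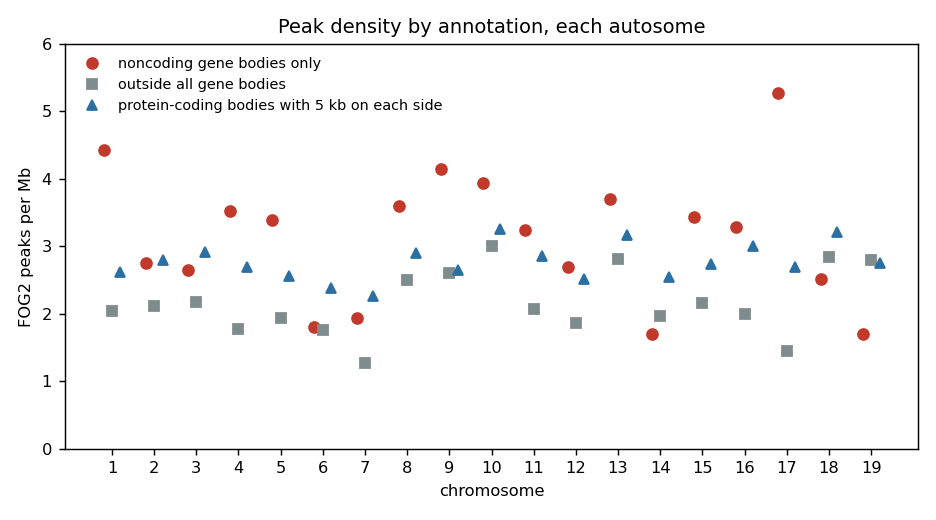
FOG2 peaks per Mb on each autosome, for noncoding gene bodies only, outside all gene bodies, and protein-coding bodies with 5 kb on each side. Noncoding bodies lie above the stretch outside all bodies on 16 of the 19 autosomes.

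Many of the peaks had a close neighbour. Another summit lay within 10 kb of 145 of the 586 (24.7%, 21.4 to 28.4), against 18.6% of those outside all gene bodies and 18.6% of all autosomal peaks. With only the strongest peak of each host, the share was 15.2%. That step drops peaks with a neighbour in the same host and was not done for the other classes, so it has no background here. There were 62 runs of peaks in noncoding bodies with steps of at most 10 kb, holding 131 peaks, and 7 runs held 3. Peaks in a run share their surroundings. The intervals on shares, medians and densities take peaks as independent, so they are too narrow.

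Few peaks met a listed start-site window, here or in the whole list, yet density was higher beside listed noncoding start sites. The intervals of 16 of the 586 met a window of their own host, and those of 118 of all 6067 autosomal peaks met a window of any gene. Start sites missing from the promoter table have no window, so both counts can be too low. Of 426 peaks whose host had a start site in the promoter table, 40 (9.39%, 6.97 to 12.53) lay within 1 kb of it and 178 (41.8%) within 10 kb, and the median distance was 13.8 kb. Without chromosome 18, which has no start sites in the promoter table, the qualifying stretch held 5.67 peaks per Mb (41 peaks, 4.07 to 7.70) within 1 kb of a noncoding start, against 3.02 (526 peaks, 2.77 to 3.29) further away. The table also lacks start sites for some hosts on other chromosomes, A930011G23Rik and Pvt1 among them. Ground beside such unlisted starts is counted as further away. The 40 peaks within 1 kb of a host start had a median fold of 5.91 (5.15 to 6.46), against 6.66 (6.30 to 6.93) for the 386 further away. Counting either end of a host, 83 of the 586 summits (14.2%, 11.6 to 17.2) lay within 1 kb, and 8.76% with hosts of curated transcripts only. With each host cut into 5 equal stretches from its start, these held 20.2%, 20.2%, 16.9%, 17.1% and 25.5% of 420 summits. The ground that the rule leaves in each stretch was not measured, so nothing is read from their differences.

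Of 349 hosts with a start site in the table, 26 (7.45%, 5.13 to 10.7) began within 5 kb of a protein-coding start on the opposite strand, against 17.1% of the 9291 autosomal lncRNA genes with one. The rule takes qualifying ground from genes that begin beside a protein-coding gene, so a lower share among hosts is built in and nothing is read from it. Among lncRNA genes of 20 kb or more with qualifying ground, the share was 14.1% (12.6 to 15.7), and among hosts of that length 9.09% (6.13 to 13.3). The promoter table also lacks start sites of some protein-coding genes. For D030024E09Rik, the nearest listed start on the opposite strand was that of Ly6g, 13381 kb away. A missing start counts as not paired, so these shares can be too low. The strongest peaks of hosts found to be paired were in B130024G19Rik beside Nr2f2 (20.5-fold) and in Gm33408 beside the T-box gene Eomes (19.5-fold).

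In 7 hosts, the body also held 13 miRNA genes, 7 of them the miR-344 cluster in A230057D06Rik. The mature miRNAs below are shown because their hairpins lie in a host at a heart gene (Gm31251, over Myh7), in the host with 5 peaks (A930035F09Rik), or within 2 kb of a summit (Gm45968 and Gm39591). Capitals mark the seed, bases 2 to 8, and no seed is shared among the 5.
mmu-miR-208b-3p: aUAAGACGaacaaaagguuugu
mmu-miR-208b-5p: aAGCUUUUugcucgcguuaugu
mmu-miR-21c: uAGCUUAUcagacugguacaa
mmu-miR-5118: aAGGUUAGgccagccuggu
mmu-miR-6341: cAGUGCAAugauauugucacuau

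miR-208b is a heart and muscle miRNA encoded within the myosin gene Myh7. Its hairpin lay on the minus strand, whereas Gm31251 runs on the plus strand, so it is not on the strand of this host. The 2 peaks of Gm31251 were 7.14-fold (15 fragments, 8.40 to 24.7) and 4.25-fold (11 fragments, 5.49 to 19.7), 0.745 kb apart and 28.2 kb or more from the hairpin. They lay 10.0 and 9.28 kb from Myh7. The miR-21c hairpin was on the strand of A930035F09Rik, 12.49 kb from the nearest of its summits. The summit in Gm45968 (7.11-fold) lay 0.148 kb from the middle of the miR-5118 hairpin, and that in Gm39591 (8.85-fold) 1.34 kb from that of miR-6341.

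At the limit of the rule, the 3 nearest peaks inside it lay 5059, 5384 and 5517 bp from a protein-coding end, at 8.82-, 8.80- and 6.46-fold. The 3 just outside it lay 4862, 4896 and 4973 bp away, at 7.66-, 4.92- and 21.8-fold, the last of them beside Bmp7.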

How the data were processed

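Per the labels' protocols, chromatin was fixed in 1% formaldehyde for 10 minutes and sheared to 300 to 800 bp. The submitters' processing notes name mm10, Bowtie2 2.3.2, SAMtools 1.5, Picard and MACS2 2.1.1, without settings. The authors deposited a peak list for the pooled pulldown, filtered against blacklisted regions per the names in the file. As deposited, the fold divides pulldown by control at the summit. Its −log10 p and −log10 q, as deposited, belong to the same summit. The deposited score was the −log10 q times 10, cut to its whole part, for all 6166 peaks, and did not enter any result.

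Positions were taken as 1-based. Fragments and control levels were solved from the deposited fold and −log10 p under a Poisson tail, with 1 added to both sides of the fold. A whole number matched within 0.001 in 100% of peaks, and a different whole number also did so in 83. The recovery and the placement rule were tested on simulated data. Shares have Wilson 95% intervals, medians exact order-statistic intervals, and fragments and densities exact Poisson intervals. No resampling over peaks was made, since peaks are not replicates. Nearest genes were measured to gene bodies. The qualifying stretch was measured between the first and last annotated gene of each autosome, and its share by nearest gene on a 1 kb grid. Python 3.11.15, numpy 2.4.6, pandas 2.3.3 and scipy 1.17.1 were used.

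The members, lists and measures were chosen with earlier results of these data known. Named were the 10 peaks of highest fold, the 10 hosts with the most peaks, up to 12 peaks in listed or os- or hg-named hosts, the 5 of highest fold nearest to a heart list, and 3 peaks on each side of the limit. Hosts tied in number of peaks were taken by their highest fold. Other names were chosen after their values were seen, and some neighbouring genes are not reported here. Exons and motifs at summits need genome sequence and annotation not used here.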

Additional observations from a re-analysis of the deposited data

How the results depend on the processing

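Of the 58 values recomputed under other settings, 44 stayed within the interval of the reported value or, for counts, within 1.5 times it. These include every value with the limit at 1 or 10 kb and with the interval midpoint. Keeping peaks of −log10 q of at least 5 left 389 peaks, with a median fold of 7.94, 29.0% at 10-fold and 19.8% with a neighbour within 10 kb. For all autosomal peaks so kept, these were 7.58, 25.3% and 15.1%. The stronger 50% of peaks left 295, with 9.02, 38.3% and 16.6%, against 8.64, 33.5% and 13.0% for all autosomal peaks so kept. Keeping peaks by fold raises the median fold and the share at 10-fold by construction. With 1 peak per host the neighbour share was 15.2%, and the other classes were not thinned in this way. Hosts without provisional symbols left 30 peaks, and hosts with curated transcripts, a setting chosen after seeing the data, left 194, of which 8.76% lay within 1 kb of a host end. With lncRNA genes only, the share hosted by them was 100% by construction. Measured as fragments, the median was 12, which is in another unit than the fold but was counted among the values that moved. No paired analysis was possible because the deposited list pools the replicates, and for the same reason no replicate could be left out. The motif search around summits, with both its windows, was not run.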
